A study of Rattus norvegicus with 19 samples.

Results

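The genes described here are used as markers of microglia, the resident macrophages of the brain, and were grouped as genes of their surveying state. They were named as P2ry12, P2ry13, Cx3cr1, Csf1r, Gpr34, Aif1 and Itgam. Not all are particular to that state, as Aif1 and Itgam are shared with other macrophages. Each gene was represented by the probe set that names it with the highest mean signal. Of these 7 genes 6 were measured, among 14218 genes in all. P2ry13 had no probe set in the platform table used and was not analysed here. RNA came from adult male rats of the Wistar strain, taken from somatosensory cortex that was perfused in treated animals with artificial cerebrospinal fluid that held the agent. The study addressed what opening of the blood-brain barrier, the serum protein albumin and the growth factor TGF-β1 do to cortical gene expression, and whether TGF-β receptor blockade alters the albumin effect.

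The first set of animals had 1 array per condition. Sodium deoxycholate (DOC, a bile salt that opens the barrier, 2 mM) was followed for 7, 24 and 48 h. Bovine serum albumin (0.1 mM) and TGF-β1 (10 ng/ml) were each followed for 8, 24 and 48 h, and a sham-operated rat was taken at 24 h. The second set was taken at 24 h throughout. It comprised 4 rats given albumin with TGF-β receptor blockers, 3 rats given albumin (0.1 mM) alone and 2 sham-operated rats. The blockers were SB431542, an inhibitor of the type I receptor kinase, at 100 µM, and an antibody to the type II receptor at 50 µg/ml. No group analysed here received the blockers without albumin, and the shams analysed were all taken at 24 h.

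Microglia extend motile processes that survey the parenchyma. They find injured or active cells through extracellular nucleotides, and they depend on the CSF1 receptor for survival. In mice, TGF-β signalling sustains the surveying gene programme, and P2ry12 transcript is lost when microglia become activated. By contrast, Itgam and Aif1 are shared by microglia, macrophages and, for Itgam, neutrophils, and both are commonly used to detect reactive phagocytes.

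The probe set signals are log2 values. The array medians lay between 5.09 and 5.17 in set 1 and between 6.05 and 6.18 in set 2, so differences were taken within a set. In set 2 the correlation of albumin replicate 2 with each other array had a median of 0.977, against 0.990 to 0.995 for the other 8 arrays. All 10 genes of a neuronal marker list passed the signal filter, which asks for 2 or more arrays of a set with a log2 value over 4. Members had signals above 4 on every array of set 2. In set 1 Itgam was above 4 on 2 arrays only, DOC and albumin at 48 h, so its values there lie close to the array's lower range. A change in whole cortex cannot tell fewer microglia from less RNA per cell.

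Promoter sequence was available for 5 of the 7 genes, as the 250 bases before the transcription start in the RefSeq table of rat assembly GRCr8. The pair below is shown because Gpr34 was lower and Itgam higher than sham on the albumin arrays, though Itgam did not pass the test. Capitals mark matches to GAGGAA on either strand (TTCCTC as read), the core bound by PU.1, the lineage factor of microglia. For both genes the annotated span reaches further upstream than the start used.
Gpr34: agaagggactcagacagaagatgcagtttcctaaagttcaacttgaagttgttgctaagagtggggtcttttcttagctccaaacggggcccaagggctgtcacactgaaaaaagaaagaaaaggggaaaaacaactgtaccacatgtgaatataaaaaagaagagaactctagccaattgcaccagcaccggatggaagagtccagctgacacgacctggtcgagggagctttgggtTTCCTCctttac
Itgam: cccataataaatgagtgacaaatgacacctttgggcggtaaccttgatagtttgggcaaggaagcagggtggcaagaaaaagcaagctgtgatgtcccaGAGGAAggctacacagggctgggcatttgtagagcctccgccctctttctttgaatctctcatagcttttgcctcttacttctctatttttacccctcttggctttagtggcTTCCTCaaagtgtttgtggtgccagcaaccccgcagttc
The Gpr34 sequence is the minus strand of chrX:11785837-11786086 and held 1 match, 12 bases before the start. The Itgam sequence is the plus strand of chr1:192089342-192089591 and held 2 matches, 151 and 39 bases before the start. Csf1r also held 2 matches, whereas Cx3cr1 and P2ry13 held none. Of all 27457 rat promoters of this length in the table, 23.2% held at least 1 match. The letters CAGAC, letters that SMAD proteins bind, occurred 3 times in the Cx3cr1 promoter and 1 time each in Csf1r and Gpr34, and 42.8% of promoters held them at least 1 time.

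Gpr34 was lower in cortex 24 h after albumin than after the sham operation, and P2ry12 was lower on every albumin array without passing the test. Csf1r and Cx3cr1, which border-associated macrophages share with microglia, overlapped sham and did not pass the test. Itgam pointed the other way. When the blockers were given together with albumin, P2ry12 and Gpr34 were above every albumin array and overlapped sham.

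**Figure D1:**
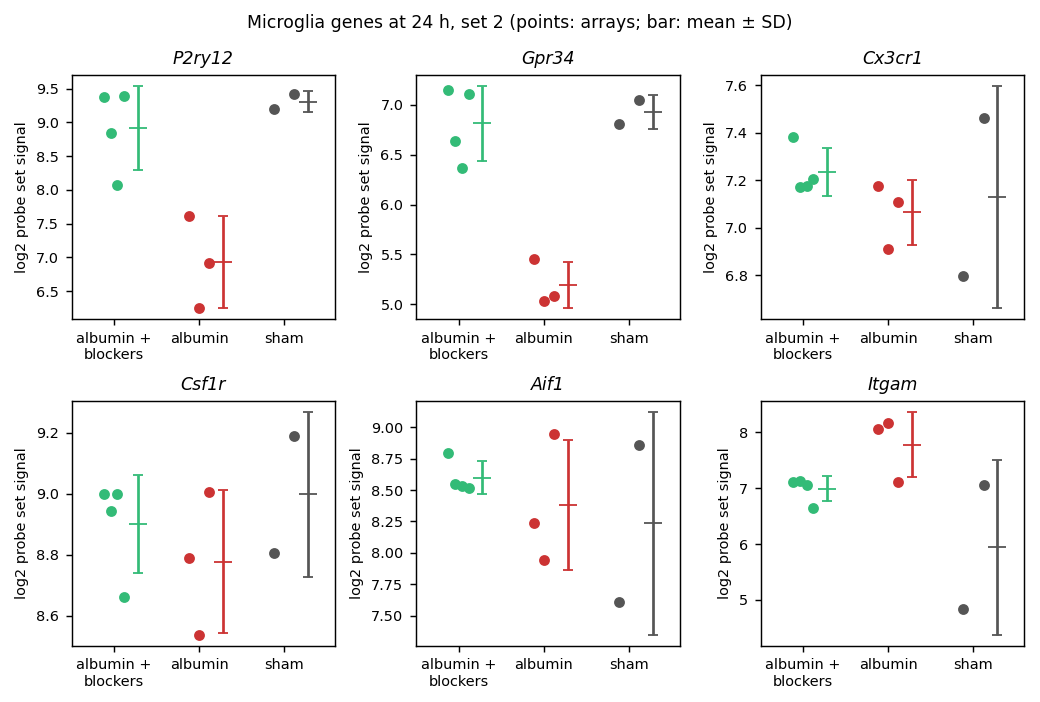
Log2 probe set signal (y axis) of the 6 measured genes at 24 h in set 2, with 4 arrays of albumin plus blockers, 3 of albumin and 2 of sham; points are arrays and bars are the mean ± SD, and each panel has its own scale that does not start at 0. The 3 albumin arrays of P2ry12 (6.26 to 7.62) and Gpr34 (5.04 to 5.46) lie below all other arrays, while the groups overlap for Cx3cr1, Csf1r and Aif1.

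P2ry12 encodes the ADP receptor that steers microglial processes towards sites of damage. Its log2 signal was 9.38, 8.84, 8.07 and 9.40 with albumin plus blockers, 7.62, 6.26 and 6.91 with albumin, and 9.20 and 9.42 in sham. The albumin arrays were all below the other arrays, and blocker replicates 2 and 3 lay between the albumin and the sham values. Albumin differed from sham by a log2 change of -2.38 ± 0.47 (SE), a 5.20-fold lower signal, with an adjusted p of 0.0558 in limma that did not pass 0.05. Means were 6.93 ± 0.68 with albumin and 9.31 ± 0.16 in sham (SD, n = 3 and 2). The 95% interval of the difference ran from -3.46 to -1.30. A second P2ry12 probe set, with signals of 2.34 to 3.73 in albumin and 5.16 to 5.61 in sham, gave -2.30 with an adjusted p of 0.0888. After quantile normalisation the limma adjusted p of the first probe set was 0.0495, and without blocker replicate 3 it was 0.0477, so the call depended on these choices.

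Gpr34 encodes a receptor for lysophosphatidylserine that is enriched in microglia. Its signal was 7.15, 6.64, 6.36 and 7.10 with albumin plus blockers, 5.46, 5.04 and 5.08 with albumin, and 6.81 and 7.05 in sham. All albumin arrays were below all others, and the blocker and sham arrays overlapped. Gpr34 fell by 1.73 ± 0.25 (SE, log2) in albumin relative to sham, a 3.33-fold lower signal with a 95% interval of -2.32 to -1.15 and a limma adjusted p of 0.0366. It ranked 32 by p among 10330 genes. The size stayed between -1.87 and -1.61 in all 17 alternatives tried, but the adjusted p rose to 0.315 without sham replicate 1 and to 0.118 without sham replicate 2. It was 0.061 without albumin replicate 3, 0.058 without blocker replicate 1 and 0.0702 without blocker replicate 2. The adjusted p was 0.0599 with no signal filter and 0.0864 when the fit held the 2 groups alone.

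Gpr34 was thus 1 of 6 members lower in albumin than in sham at an adjusted p under 0.05, where 0.368% of all genes tested were lower and 1.33% changed in either direction. By arrays alone, 2 members were lower and 1 was higher with no overlap between the groups, where 19.2% of all genes were lower and 22.2% higher in that way. The median log2 difference was -0.14 over the 6 members and 0.02 over all genes.

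Cx3cr1 encodes the receptor of the neuronal chemokine fractalkine. It read 7.38, 7.17, 7.18 and 7.21 with albumin plus blockers, 7.18, 6.91 and 7.11 with albumin, and 6.80 and 7.46 in sham. The sham arrays enclosed all others. The albumin difference from sham was -0.06 ± 0.19 (limma adjusted p = 0.861) with an interval of -0.50 to 0.37.

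Csf1r encodes the receptor of CSF1 and IL-34, on which microglia depend. It read 8.998, 8.94, 8.998 and 8.66 with albumin plus blockers, 8.79, 8.54 and 9.005 with albumin, and 8.81 and 9.19 in sham. The 3 groups overlapped. Albumin differed from sham by -0.22 ± 0.18 (limma adjusted p = 0.495), and the interval of -0.64 to 0.20 leaves out a loss of the size estimated for Gpr34.

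Aif1 encodes Iba1, an actin-binding protein of microglia and macrophages. Its values were 8.79, 8.55, 8.53 and 8.52 with albumin plus blockers, 8.24, 7.94 and 8.95 with albumin, and 7.61 and 8.86 in sham. The groups overlapped, and the albumin difference of 0.14 ± 0.38 had an interval of -0.74 to 1.02 (limma adjusted p = 0.847). The Aif1 probe set used may match several transcripts. A second Aif1 probe set had signals of about 1.6 throughout and was not tested.

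Itgam encodes CD11b, the alpha chain of complement receptor 3. It read 7.11, 7.12, 7.06 and 6.65 with albumin plus blockers, 8.06, 8.17 and 7.11 with albumin, and 4.84 and 7.05 in sham. The albumin arrays were above the sham arrays by a narrow margin at albumin replicate 3, and the sham arrays lay far apart. The difference of 1.83 ± 0.58 (log2) did not pass the test, with a limma adjusted p of 0.135. The value was 0.73 without sham replicate 1 and 2.94 without sham replicate 2.

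**Figure D2:**
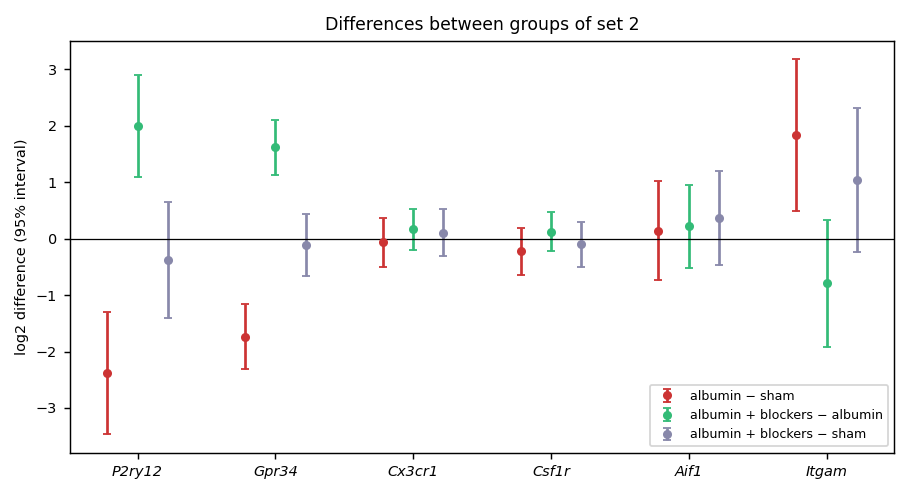
Log2 difference (y axis) with its 95% interval for each of the 6 genes in the 3 contrasts of set 2, from limma. Albumin minus sham is -2.38 for P2ry12 and -1.73 for Gpr34, and albumin plus blockers minus albumin is 1.99 and 1.62 for the same genes.

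With the blockers added to albumin, P2ry12 and Gpr34 were higher than with albumin alone on every array, although neither passed the test. P2ry12 averaged 8.92 ± 0.62 with albumin plus blockers and 6.93 ± 0.68 with albumin (SD, n = 4 and 3), a difference of 1.99 ± 0.39 (SE, log2). Its interval was 1.09 to 2.90 and its limma adjusted p 0.116. Gpr34 averaged 6.81 ± 0.38 with albumin plus blockers and 5.19 ± 0.23 with albumin, a difference of 1.62 ± 0.21 with an interval of 1.13 to 2.11. Its limma adjusted p was 0.074, and it ranked 7 of 10330 genes by p. Without albumin replicate 1 the adjusted p was 0.048, and without blocker replicate 3 it was 0.0445.

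No member was called between albumin plus blockers and albumin by limma, where 0.0194% of all genes were called, and 2 of 6 had an unadjusted p under 0.05, as had 16.6% of all genes. Those 2 members were higher with no overlap, as were 7.32% of all genes. Itgam was -0.79 ± 0.49 in this contrast (adjusted p = 0.416), and Cx3cr1, Csf1r and Aif1 differed by 0.17 ± 0.16, 0.12 ± 0.15 and 0.22 ± 0.32, all with overlapping arrays.

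Set against sham, albumin plus blockers gave -0.38 ± 0.45 for P2ry12 and -0.11 ± 0.24 for Gpr34. Cx3cr1 was 0.11 ± 0.18, Csf1r was -0.10 ± 0.17, Aif1 was 0.36 ± 0.36 and Itgam was 1.04 ± 0.55. No member was called by limma or had an unadjusted p under 0.05. Of all genes 0.0% were called and 444 had such a p. The albumin contrasts with sham and with the blockers share the albumin arrays, so their opposite signs are not separate observations.

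Within an array, P2ry12 and Gpr34 could be set against Csf1r, with the difference expressed relative to the shams of the set. P2ry12 minus Csf1r was 0.07, -0.41, -1.23 and 0.42 with albumin plus blockers, and -1.48, -2.59 and -2.40 with albumin, with the 2 shams within 0.08 of zero. Gpr34 minus Csf1r was 0.22, -0.23, -0.56 and 0.51 with albumin plus blockers, and -1.26, -1.43 and -1.85 with albumin, with the shams within 0.07. P2ry12 and Gpr34 were therefore lower relative to Csf1r on every albumin array than on any other array of the set. This within-array difference shows unequal change and does not say which transcript moved. At 24 h in set 1 P2ry12 minus Csf1r was -1.26 with DOC, -1.27 with TGF-β1 and -2.58 with albumin. Gpr34 minus Csf1r was -0.13, -0.42 and -1.55 on the same arrays. A lower P2ry12 relative to Csf1r was thus not confined to albumin.

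**Figure D3:**
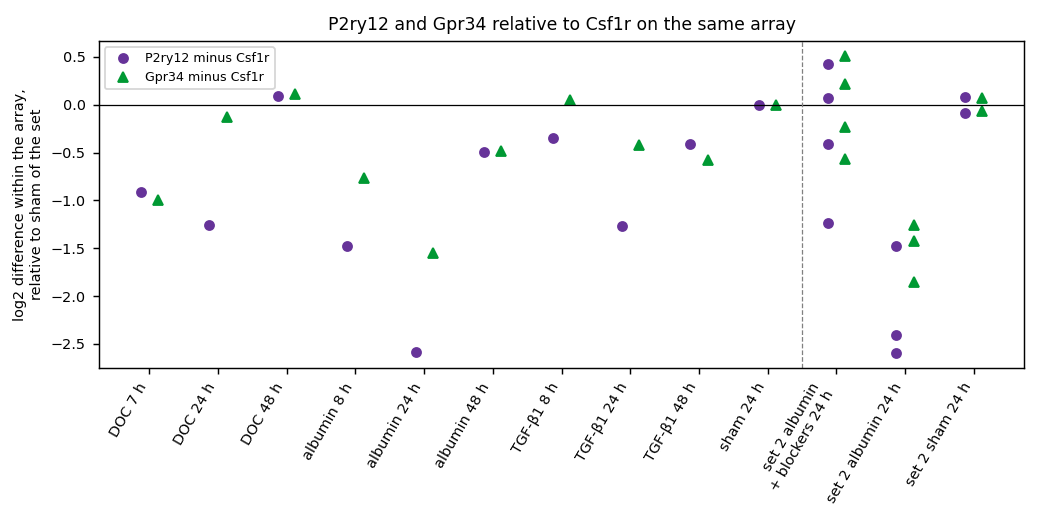
P2ry12 (circles) and Gpr34 (triangles) minus Csf1r on the same array, in log2 relative to the sham of the set, for the 10 arrays of set 1 (left of the dashed line) and the 9 of set 2. The lowest values of set 1 are those of albumin at 24 h (-2.58 and -1.55), and the 3 albumin arrays of set 2 range from -2.59 to -1.48 for P2ry12.

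The single albumin array of set 1 at 24 h was not among the arrays of set 2. On it P2ry12 was -2.86 (log2) from the set 1 sham, against -3.05 to -1.69 for the albumin arrays of set 2 from the mean of their shams. Gpr34 was -1.82 in set 1, against -1.89 to -1.47 in set 2. P2ry12 was the 9th lowest of 10019 genes on that array relative to sham, and Gpr34 was the 47th. Csf1r was -0.27, and Itgam was 0.91.

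Cx3cr1 was -1.04 from sham in set 1 and -0.22 to 0.05 in set 2. With 1 array on each side in set 1, these values have no replicate check. At 24 h P2ry12 was -1.05 with DOC and -0.79 with TGF-β1, while Gpr34 was 0.08 and 0.07, and Gpr34 was far below sham on the albumin array alone among the 3 agents at that time.

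**Figure D4:**
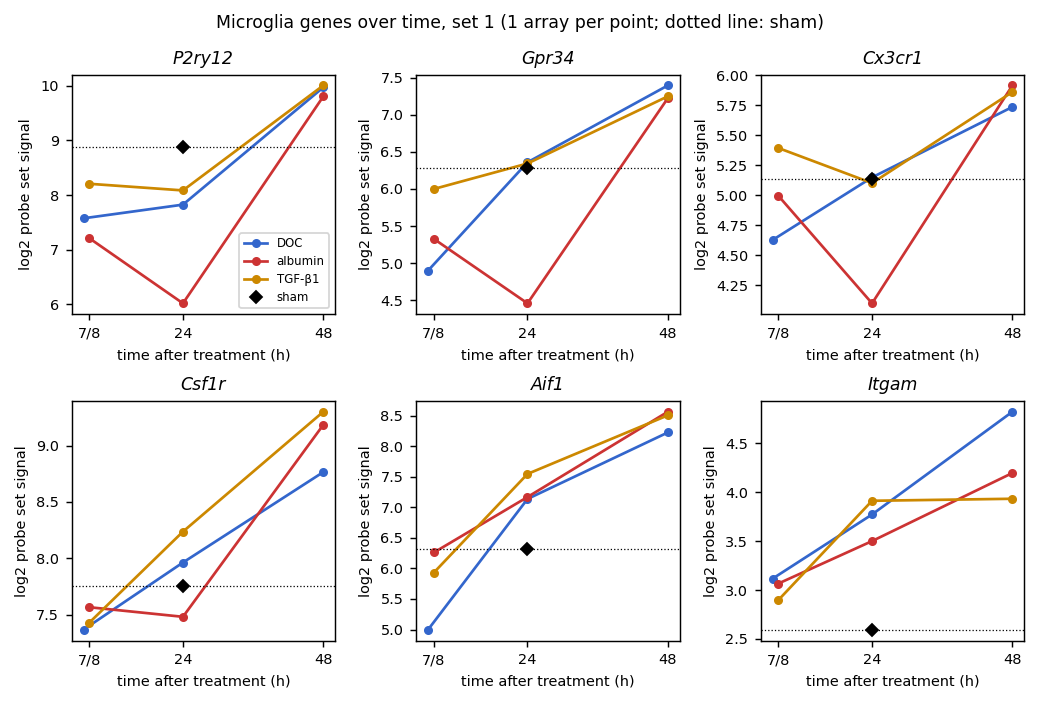
Log2 probe set signal (y axis, scale differs by panel) against hours after treatment for DOC, albumin and TGF-β1 in set 1, with 1 array per point and the 24 h sham as a diamond and dotted line. All 6 genes are highest at 48 h under each agent, with P2ry12 at 9.81 to 10.01, and albumin at 24 h holds the lowest P2ry12, Gpr34 and Cx3cr1 values of the set.

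By 48 h the microglial transcripts were high under all 3 agents. No sham was analysed at 7, 8 or 48 h. A response to the agents therefore cannot be told apart from time since the operation. P2ry12, Csf1r, Aif1 and Itgam rose between the early time, 7 h for DOC and 8 h for albumin and TGF-β1, and 48 h. Itgam entered these tests only through its DOC and albumin arrays at 48 h. For every member, all 3 arrays at 48 h lay above all 3 at 24 h, above all 3 at the early time and above the 24 h sham. Among all genes 10.8% were higher in that way at 48 h than at 24 h, 14.8% were higher than at the early time, and 29.7% had all 3 arrays at 48 h above the lone sham. The replicates of a time here are 3 different agents, and the spread came from an additive model of agent and time.

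P2ry12 read 7.58, 7.83 and 9.97 at 7, 24 and 48 h after DOC. It read 7.21, 6.02 and 9.81 at 8, 24 and 48 h after albumin, and 8.21, 8.09 and 10.01 after TGF-β1, against 8.88 in sham. All 6 arrays up to 24 h were below the sham, as were those of 18.8% of all genes, and the 3 at 48 h were above it. P2ry12 rose by 2.62 ± 0.35 (SE, log2) at 48 h relative to 24 h, a 6.15-fold higher signal (limma adjusted p = 0.0208). Relative to the early time it rose by 2.27 ± 0.35 (adjusted p = 0.0166). These limma adjusted p values reached 0.0954 and 0.0684 with no signal filter. The 48 h against 24 h call ended without any 1 of 6 arrays, namely DOC at 24 or 48 h, albumin at 48 h and TGF-β1 at 8, 24 or 48 h, with adjusted p of 0.0506 to 0.0653. The call against the early time ended without DOC at 7 or 48 h, albumin at 8 h or TGF-β1 at 8 h, with adjusted p of 0.052 to 0.0927.

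Gpr34 read 4.90, 6.36 and 7.40 after DOC, 5.33, 4.46 and 7.23 after albumin, and 6.0, 6.34 and 7.25 after TGF-β1, against 6.28 in sham. Its lowest value was the albumin array at 24 h. The differences of 1.57 ± 0.44 between 48 and 24 h and of 1.88 ± 0.44 between 48 h and the early time had limma adjusted p of 0.159 and 0.0604. Without albumin at 24 h the last adjusted p was 0.0149, without DOC at 24 h it was 0.0449, and with a trended, robust fit it was 0.0381.

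Csf1r read 7.37, 7.96 and 8.76 after DOC, 7.57, 7.48 and 9.18 after albumin, and 7.43, 8.24 and 9.30 after TGF-β1, against 7.75 in sham. It was below sham at the early time and above it at 48 h under each agent. Csf1r rose by 1.63 ± 0.20 at 48 h relative to the early time (limma adjusted p = 0.00773), and this call held in all 16 alternatives, with adjusted p up to 0.0481. Relative to 24 h it was 1.19 ± 0.20 higher with an adjusted p of 0.0491. That call ended without any 1 of the 9 treated arrays (adjusted p 0.0694 to 0.165) and in 5 other settings.

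Aif1 read 4.998, 7.14 and 8.23 after DOC, 6.26, 7.17 and 8.57 after albumin, and 5.93, 7.55 and 8.51 after TGF-β1, against 6.32 in sham. Each agent gave a stepwise order, with every early array below and every later array above the sham. Aif1 rose by 1.55 ± 0.23 at 24 h relative to the early time (limma adjusted p = 0.0429) and by 2.70 ± 0.23, or 6.51-fold, at 48 h (adjusted p = 0.00225). The call at 48 h held in all 16 alternatives, with adjusted p up to 0.02 and sizes of 1.35 to 2.96. The value was 1.35 where the mean of both Aif1 probe sets was used. The call at 24 h ended without 8 of the 9 treated arrays, all but DOC at 48 h, with adjusted p of 0.0562 to 0.153. It was also lost with no signal filter (0.124) and with the mean of both probe sets, at 0.78 with an adjusted p of 0.0777. The difference between 48 and 24 h, 1.15 ± 0.23, had an adjusted p of 0.077, and of 0.0474 without DOC at 7 h.

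Itgam read 3.12, 3.77 and 4.83 after DOC, 3.07, 3.50 and 4.20 after albumin, and 2.90, 3.91 and 3.93 after TGF-β1, against 2.59 in sham. It was above the sham on all 9 treated arrays, as were 11.2% of all genes. Itgam rose by 1.29 ± 0.20 at 48 h relative to the early time (limma adjusted p = 0.0181). It passed the signal filter only through DOC and albumin at 48 h, so this call is not independent of the filter. Without either of those arrays Itgam was not tested. The call ended without DOC at 7 h (0.0974), albumin at 8 h (0.0507) or TGF-β1 at 8 h (0.0926), and with no signal filter (0.0597). Its differences of 0.70 ± 0.20 between 24 h and the early time and of 0.59 ± 0.20 between 48 and 24 h had adjusted p of 0.207 and 0.235.

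Cx3cr1 read 4.63, 5.15 and 5.74 after DOC, 4.996, 4.10 and 5.92 after albumin, and 5.39, 5.10 and 5.86 after TGF-β1, against 5.14 in sham. Its lowest value was again albumin at 24 h. The 48 h arrays were higher than those at 24 h by 1.05 ± 0.28 and than those at the early time by 0.83 ± 0.28, with limma adjusted p of 0.147 and 0.152.

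Counted over the members, 1 of 6 rose between the early time and 24 h, where 0.5% of all genes rose. Between 24 and 48 h 2 of 6 rose, where 1.22% of all genes did. Between the early time and 48 h 4 of 6 rose, where 3.91% of all genes did. Itgam is among these 4, and it passed the signal filter only through arrays at 48 h. The median difference from the early time to 48 h was 1.76 over the 6 members and 0.01 over all genes.

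Averaged over the 3 times, no member was called against the lone sham for any agent by limma, where 0.469% of genes were called for DOC, 0.369% for albumin and 0.0% for TGF-β1. An unadjusted p under 0.05 was found for 1 of 6 members with DOC, 3 with albumin and 2 with TGF-β1, where 18.7%, 11.9% and 7.49% of all genes had one. P2ry12 was -0.42 ± 0.50 for DOC, -1.20 ± 0.50 for albumin and -0.11 ± 0.50 for TGF-β1 (limma adjusted p 0.699, 0.414 and 0.999). The second P2ry12 probe set gave -0.97 for DOC, -1.46 for albumin and -0.98 for TGF-β1, so the size depended on the probe set (limma adjusted p 0.195, 0.145 and 0.498). These fits take the single sham to have the same spread as the treated arrays.

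Between agents no member was called by limma, where 0.01% of genes were called for albumin against DOC, 0.03% for TGF-β1 against DOC and 0.0% for TGF-β1 against albumin. P2ry12 averaged 8.77 with TGF-β1 and 7.68 with albumin over the 3 times, a difference of 1.09 ± 0.35 with an unadjusted p of 0.0172 and a limma adjusted p of 0.515. Gpr34 was 0.86 ± 0.44 higher with TGF-β1 than with albumin, with a limma adjusted p of 0.591. In each of the 3 contrasts 1 of 6 members had an unadjusted p under 0.05. Over all genes the share was 7.47% for albumin against DOC, 20.8% for TGF-β1 against DOC and 8.75% for TGF-β1 against albumin.

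Other genes known to be enriched in microglia differed from sham in both directions after albumin in set 2. Of 30 listed genes 22 were tested and none was called between albumin and sham, with a median log2 difference of 0.28. Their summed log2 signal, over 26 genes on the array, went the other way from that median, at 15.38 to 15.54 with albumin plus blockers, 15.05 to 15.28 with albumin and 15.42 to 15.57 in sham. The albumin arrays were below all others in this sum. It is the log2 of added unlogged signals, so the brightest genes of the list weigh most in it. Olfml3, a secreted glycoprotein of microglia, was -2.62 ± 0.61 (limma adjusted p = 0.0716), with albumin arrays of 2.67 to 2.82 and sham arrays of 5.17 to 5.54. Rgs10, a regulator of G protein signalling, was -0.73 ± 0.19 (adjusted p = 0.0859). Fcer1g, an adaptor of Fc receptors, was 1.29 ± 0.34 and the Src-family kinase Lyn was 1.59 ± 0.45, with adjusted p of 0.0954 and 0.107. Tmem119, named after its values were seen because it is a widely used microglial marker, was -2.15 ± 1.23 with an adjusted p of 0.34. Its albumin arrays ran from 3.22 to 6.54 and its sham arrays from 6.05 to 7.21. None of these 22 genes was called with albumin plus blockers against albumin, where the median was 0.02. Rgs10 was 0.60 ± 0.16 there, with an adjusted p of 0.171.

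Of 18 listed ligands, partners and purinergic genes, 11 were tested and none was called between albumin and sham. Nt5e, the enzyme that makes adenosine from AMP, was 2.37 ± 0.56 (limma adjusted p = 0.0731), and Icam1, a ligand of complement receptor 3, was 3.23 ± 0.79 (adjusted p = 0.0785). Itgb2, the beta chain that pairs with Itgam, was 1.83 ± 0.66 with an adjusted p of 0.171. The ligands of the receptors stayed closer to zero, at 0.50 ± 0.19 for Csf1, -0.14 ± 0.30 for Il34 and -0.38 ± 0.31 for Cx3cl1. Of 11 listed microglial transcription factors, 8 were tested and none was called. Sall1, which maintains microglial identity in mice, was -0.47 ± 0.20, and Irf8, a lineage factor, was 1.33 ± 0.63, with limma adjusted p of 0.224 and 0.266. Of 15 listed TGF-β pathway genes, 11 were tested and none was called, and Tgfb2 was 1.54 ± 0.33 with an adjusted p of 0.062.

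Genes of phagocyte activation lay mostly above sham after albumin. Of 17 tested, 2 rose with albumin relative to sham and none fell, with a median of 1.48, where 0.958% of all genes rose. Lgals3, which encodes galectin-3, rose by 4.04 ± 0.65 (limma adjusted p = 0.044), and Gpnmb, a lysosomal glycoprotein of activated phagocytes, by 3.39 ± 0.62 (adjusted p = 0.0486). With albumin plus blockers against albumin none of the 17 was called, and the median was -0.90.

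Summed signals of neutrophil and monocyte markers were higher on the albumin arrays, and those of meningeal markers were lower. None of 4 tested neutrophil genes and 1 of 5 tested monocyte genes was called between albumin and sham, where 1.33% of all genes were. The summed signal of 7 neutrophil genes, on a log2 scale, was 7.27 to 9.62 with albumin plus blockers, 9.69 to 12.02 with albumin and 5.75 to 6.90 in sham, and 3 of the 7 were never above 4. For 6 monocyte genes it was 10.85 to 11.14, 11.74 to 11.96 and 10.74 to 10.84 in the same order of groups, and Ccr2 stayed at 2.07 to 2.16 on all 9 arrays. Of the monocyte list S100a4 rose by 2.73 ± 0.25 with albumin relative to sham (limma adjusted p = 0.0146). Border-associated macrophage genes, 8 on the array with 4 never above 4, summed to 7.63 to 7.85 with albumin plus blockers, 7.12 to 7.89 with albumin and 6.92 to 7.43 in sham. All 6 lymphocyte genes on the array stayed at or below 4 in set 2. Of 9 meningeal genes 3 fell with albumin relative to sham and none rose, where 0.368% of all genes fell. Their median was -2.46. Their sum was 12.91 to 14.17 with albumin plus blockers, 11.72 to 12.65 with albumin and 14.27 to 14.83 in sham. The part of these cells or of the dissection in the values of P2ry12, Gpr34 and Itgam was not tested.

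At 48 h in set 1 the members moved with many other microglial genes. Of 20 tested genes of the other microglia list, 13 rose relative to the early time and none fell, where 3.91% of all genes rose. Their median was 1.63, and 3 of them rose relative to 24 h, where 1.22% of all genes did. The genes named here for set 1 outside the ligand and transcription factor lists were chosen after their values were seen. Relative to the early time Tyrobp, a signalling adaptor, rose by 1.94 ± 0.15 (limma adjusted p = 0.00203) and the complement gene C1qc by 2.24 ± 0.19 (adjusted p = 0.00225). Trem2, a lipid-sensing receptor, rose by 1.64 ± 0.35 with an adjusted p of 0.0447. Cd53, a leukocyte tetraspanin, rose by 2.24 ± 0.21 relative to 24 h (adjusted p = 0.00622).

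Itgb2, the partner of Itgam, rose by 1.87 ± 0.17 relative to the early time (limma adjusted p = 0.00266), and the ATP-gated channel gene P2rx4 by 0.92 ± 0.18 (adjusted p = 0.0369). These were the 2 of 11 ligand and partner genes called. Of 8 transcription factors, Sall1 alone was called, at 1.08 ± 0.18 (adjusted p = 0.0201), with Irf8 at 1.12 ± 0.29 (0.0829). Csf1 and Il34, both at 0.31, and Cx3cl1 at -0.52 did not pass.

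Phagocyte activation genes also rose by 48 h, in 10 of 17 tested relative to the early time, with a median of 1.22. In that comparison 3.91% of all genes rose. Cd68, a lysosomal protein, rose by 3.57 ± 0.23 (limma adjusted p = 0.000969), and Spp1, which encodes osteopontin, by 5.19 ± 0.65 (adjusted p = 0.00773). Markers of border-associated macrophages, which share Csf1r, Aif1 and Cx3cr1 with microglia, rose in 3 of 4 tested, where 3.91% of all genes rose. Of the 8 on the array 4 were never above 4 in set 1. Whether the tested ones passed the signal filter only through arrays at 48 h was not examined. Folr2 rose by 2.80 ± 0.23 (adjusted p = 0.00224) and Mrc1 by 1.86 ± 0.33 (adjusted p = 0.0254). Their summed log2 signal over 8 genes was 6.67 to 7.33 at the early time, 6.58 to 7.08 at 24 h and 8.29 to 8.62 at 48 h, with 6.55 in sham. The monocyte sum was 9.45 to 9.59, 9.94 to 10.26 and 11.12 to 11.40 at the same times, with 8.33 in sham. Of 7 tested meningeal genes 4 rose relative to the early time, with a median of 1.49, while their summed signal overlapped, at 11.51 to 12.96 at the early time and 10.94 to 12.46 at 48 h. Of 7 endothelial genes 3 rose, both tested choroid plexus or red cell genes fell, and none of 3 neutrophil genes was called, with a median of -3.15. The part of these cells in the 48 h values was not tested.

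Genes whose pattern was closest to a member over the 19 arrays were found by the root mean square log2 difference, with values centred on the mean of each set, among 9842 genes. This measure depends on all arrays, including those compared above, and is given as a description. For P2ry12 the nearest genes were Gpr34 (0.43), Ocln (0.50), Tspan8 (0.59), Lcat (0.59) and Abcg2 (0.65), set against a spread of 1.19 for P2ry12 about its set means. For Gpr34 they were Ocln (0.41), P2ry12 (0.43), Sox17 (0.47), Slc5a11 (0.48) and Tmem176a (0.48). Ocln and Abcg2 are expressed by brain endothelium, as is Sox17. The listed endothelial genes moved in both directions. Of 7 tested, 5 were higher and 2 lower with albumin than in sham in set 2, with a median of 0.69 and none called. Between 24 and 48 h in set 1 their median was -0.47, with 3 higher and 4 lower. At 48 h relative to the early time 3 of the 7 rose and none fell, with a median of 0.0042. The part of endothelial cells in the P2ry12 and Gpr34 values was not tested. For Aif1 they were Skap2, Mpeg1, Sft2d2, Cyba and Serpinh1 (0.37 to 0.44), of which Mpeg1 and Cyba are phagocyte genes. For Itgam they were Cdt1, Gmnn, Dtl, Tmbim1 and Ggta1 (0.27 to 0.41), and the first 3 of these act in DNA replication licensing. Cx3cr1 and Csf1r varied by less than 1 log2 in set 2, and no nearest genes are given for them.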

How the data were processed

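Gene expression in rat cortex was measured on 19 Affymetrix arrays, 1 per animal or condition. The submitters' processing notes name GCRMA (version not given in the sources used here), and the authors deposited its output as log2 signals per probe set. The method subtracts background and normalises by quantiles, which can compress signals close to background. Gene names came from the platform table, updated to assembly GRCr8 by Entrez identifier for 20764 of 20832 probe sets that name 1 gene. Each gene took its probe set of highest mean signal. The tests covered genes whose log2 signal exceeded 4 on 2 or more arrays of a set: 10330 in set 2, 10019 in set 1 and 10003 in its 9 treated arrays.

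Limma 3.58.1 in R 4.3.3 was used (lmFit and eBayes, two-sided, Benjamini-Hochberg adjustment over all genes, threshold 0.05). The 3 groups of set 2 shared 1 estimate of the spread. Set 1 was fitted with additive terms for agent and time. In all, 12 comparisons were made, and the number of arrays limits their precision. The scripts were tested on simulated data. Figures were drawn with matplotlib 3.10.9, and tables were made with pandas 2.3.3 in Python 3.11.15.

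The members, the gene lists and the comparisons were chosen with earlier results of these data known. All members were named in each comparison of set 2; with them, genes of the ligand and transcription factor lists and up to 4 genes of the other lists with the smallest p. Alternatives were no filter, a stricter filter, other probe sets, median centring, quantile normalisation, a trended robust fit, 2 groups alone, a replicate block and leaving out each array.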

Additional observations from a re-analysis of the deposited data

Results flagged for a closer look

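Among the 4 arrays of albumin plus blockers in set 2, 1 array stood apart from the other 3 for 4 of the 6 genes. Cx3cr1 was highest on replicate 1 at 7.38, with the next at 7.21. Aif1 was highest on the same replicate at 8.79, with the next at 8.55. Csf1r was lowest on replicate 4 at 8.66, with the next at 8.94, and Itgam was lowest on replicate 4 at 6.65, with the next at 7.06. The gap to the nearest array made up between 0.84 and 0.89 of the group's whole range. Chance marks about 5% of groups in this way. Only this group had enough arrays to be checked, and the flags of the 4 genes fall on replicates 1 and 4 alone, so they are not independent. P2ry12 and Gpr34 had no such array in this group.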

How the results depend on the processing

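Of 746 values of single members under the alternatives, 679 kept their direction and their side of the threshold, 48 no longer passed it, 8 newly passed it and 11 turned direction, all 11 in values that did not pass the test. The reversals came from leaving out 1 array. Over these fits albumin minus sham ran from -0.40 to 0.27 for Cx3cr1 and from -0.48 to 0.77 for Aif1. Albumin plus blockers minus sham ran from -0.23 to 0.44 for Cx3cr1, -0.288 to 0.0934 for Csf1r, -0.235 to 0.0361 for Gpr34, -0.264 to 0.990 for Aif1 and -0.066 to 2.15 for Itgam, and TGF-β1 minus sham ran from -0.34 to 0.18 for P2ry12, with -0.98 for its second probe set.

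Of the 6 members, 1 was called between albumin and sham. The number was 0 with no filter, with the 2 groups alone and with the replicate block, 2 after quantile normalisation, and 0 to 2 without 1 array. Between albumin plus blockers and albumin it was 0, and 0 to 1 without 1 array. Between 24 h and the early time it was 1, against 0 with no filter and with the mean of all probe sets, and 0 to 1 without 1 array. Between 48 and 24 h it was 2, against 0 with no filter, 1 with a mean log2 above 5, with the mean of all probe sets, with median centring and with quantile normalisation, and 0 to 2 without 1 array. Between 48 h and the early time it was 4, against 2 with no filter, 3 with a mean log2 above 5, 5 with a trended robust fit and 2 to 5 without 1 array. Over all genes the number called ranged from 1 to 191 around 137 for albumin minus sham, 0 to 28 around 2 for albumin plus blockers minus albumin and 0 to 2 around 0 for albumin plus blockers minus sham. In set 1 it ranged from 1 to 526 around 47, 2 to 597 around 37 and 0 to 11 around 0 for DOC, albumin and TGF-β1 minus sham. For times it ranged from 0 to 129 around 80 at 24 h against the early time, 35 to 172 around 132 at 48 against 24 h, and 166 to 619 around 509 at 48 h against the early time. For TGF-β1 minus DOC it ranged from 1 to 180 around 3. The cause was not tested.

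Same-numbered albumin and blocker arrays had deviations that correlated at 0.22, 0.22 and 0.05, against -0.26 to 0.18 for differently numbered ones. The labels do not state that the numbers pair animals, so the main fit used no pairs and the replicate block was an alternative. Whether the animals were paired was not settled. With the replicate block Gpr34 was -1.62 in albumin minus sham, with a limma adjusted p of 0.0666. Low signal limits Itgam in set 1, and 2 shams limit set 2.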
